A study of Arabidopsis thaliana with 5 samples.

Results

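The centromere-proximal stretches of the Arabidopsis thaliana chromosomes are packed with the remains of transposons, and these features are described here in the leaf epidermis of the hdl mutant. They are the 3138 entries of the deposited raw count table whose identifiers fall in 5 identifier windows, AT1G33 to AT1G43, AT2G03 to AT2G15, AT3G30 to AT3G47, AT4G03 to AT4G09 and AT5G27 to AT5G36. The table holds 3903 entries in all, and the other 765 lie outside the windows. All 3138 are annotated as pseudogenes in the NCBI RefSeq annotation of TAIR10.1, and 0 of them are in the gene table that the authors deposited beside it. The windows hold 468 of these features at chr1:11957968-16699056, 722 at chr2:911692-6953594, 686 at chr3:11767113-17666891, 615 at chr4:1447373-6212148 and 647 at chr5:9516470-14616135, in TAIR10.1 coordinates, since the count table gives none.

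RNA was sequenced from 2 hdl libraries and 3 wild-type (WT) libraries. The mutant allele is named hdl-1 in the growth protocol and lies in a homeodomain-like gene, while WT seedlings carry no mutation named in the labels. Both groups were 9 days post germination and both carried the reporter AtML1pro:RCI2A-mCherry, a red membrane protein driven by a promoter that is active in the epidermis, so that mCherry-positive leaf protoplasts could be collected by fluorescence-activated sorting. Separate plantings are not stated for the libraries of a genotype, so the p-values reflect library-to-library spread that could be technical. In bulk RNA, fewer cells of a type and less RNA per cell cannot be told apart.

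Transposons near plant centromeres are normally kept silent. DNA methyltransferases, the chromatin remodeller DDM1, histone H3 lysine 9 methylation and small interfering RNAs of the RNA-directed DNA methylation pathway hold them in compact, methylated chromatin, and transcripts of such elements accumulate in mutants of these factors. Most copies are decayed, and a smaller number lie close enough to ordinary genes to be transcribed along with them. For 17 of the 3138 features the annotation itself names an element type. These are 8 Sadhu retrotransposons, 4 non-LTR elements, 3 CACTA elements, 1 gypsy-type element and MUG8, a gene of the MUSTANG family derived from Mutator-like transposases. For the other 3121 it names none and does not say that they derive from transposons, so they are called here by their identifiers.

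The start regions of 3 features are shown because the results below turn on them: AT5G35777 stood higher in hdl libraries, AT5G28145 stood lower and AT2G06950 overlapped between genotypes. Each sequence runs from 250 bases before to 50 bases after the annotated start, from the RefSeq TAIR10.1 genome, with TATAAA, the letters of a TATA box, and TGGTATCA in capitals. In many plant copia retrotransposons, reverse transcription is primed by the initiator methionine transfer RNA at a site beginning with the letters TGGTATCA.
AT5G35777, chr5:13948978-13949277, plus strand: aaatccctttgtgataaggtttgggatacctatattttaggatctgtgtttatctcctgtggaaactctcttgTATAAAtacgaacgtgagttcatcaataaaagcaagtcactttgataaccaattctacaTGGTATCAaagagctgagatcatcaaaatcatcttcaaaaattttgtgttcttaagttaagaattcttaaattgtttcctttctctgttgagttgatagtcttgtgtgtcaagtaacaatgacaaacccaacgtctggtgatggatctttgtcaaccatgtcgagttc
AT5G28145, chr5:10128772-10129071, plus strand: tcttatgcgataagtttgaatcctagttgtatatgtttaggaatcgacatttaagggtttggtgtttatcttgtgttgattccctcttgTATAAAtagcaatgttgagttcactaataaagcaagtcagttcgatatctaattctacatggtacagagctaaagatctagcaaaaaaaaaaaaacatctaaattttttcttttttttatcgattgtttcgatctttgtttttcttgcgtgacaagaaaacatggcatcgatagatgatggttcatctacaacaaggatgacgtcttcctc
AT2G06950, chr2:2863385-2863684, minus strand: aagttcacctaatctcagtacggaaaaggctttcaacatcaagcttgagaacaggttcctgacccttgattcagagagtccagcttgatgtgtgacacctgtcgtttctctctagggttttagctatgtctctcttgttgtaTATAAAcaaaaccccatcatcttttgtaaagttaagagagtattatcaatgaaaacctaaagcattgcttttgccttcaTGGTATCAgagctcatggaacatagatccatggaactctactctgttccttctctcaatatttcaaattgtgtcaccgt
The windows of AT5G35777 and AT5G28145 were 71.3% identical over 268 aligned bases, and their whole spans of 4575 and 4655 bases were 69.9% identical over 4512 aligned bases. In AT5G35777, TATAAA began 177 bases and TGGTATCA 118 bases before the start, and in AT2G06950 they began 108 and 29 bases before it. In AT5G28145, TATAAA began 161 bases before the start and TGGTATCA did not occur in the window.

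Across all 3138 pericentromeric features, TGGTATCA stood in the 300-base start window of 154 (4.91%) when read in the direction of the feature and of 7 (0.223%) on the opposite strand, so the motif was oriented. TATAAA stood in 560 (17.8%) in the direction of the feature and in 642 (20.5%) on the opposite strand. Both motifs stood together, in the direction of the feature, in 34 (1.08%). The letters of the pair cannot overlap each other. TGGTATCA was found in 9 of the 88 features with enough reads to test (10.2%) and in 64 of the 1851 with no read (3.46%). A match describes letters only and is not a site of transcription or priming shown in these data.

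Sadhu elements are short, non-coding retrotransposons described in Arabidopsis. Their first 120 bases are shown because 5 of the 8 in the windows share CAATCGTTCC, the longest shared run with all 4 bases, given in capitals, and because their RNA levels differed widely between copies.
SADHU1-1, chr2:4006925-4007044, minus strand: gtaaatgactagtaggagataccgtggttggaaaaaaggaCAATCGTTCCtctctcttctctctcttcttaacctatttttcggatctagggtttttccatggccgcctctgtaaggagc
SADHU1-3, chr5:10632241-10632360, plus strand: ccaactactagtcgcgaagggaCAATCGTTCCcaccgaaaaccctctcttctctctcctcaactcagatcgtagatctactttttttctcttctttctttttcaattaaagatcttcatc
SADHU2-1, chr1:12840999-12841118, minus strand: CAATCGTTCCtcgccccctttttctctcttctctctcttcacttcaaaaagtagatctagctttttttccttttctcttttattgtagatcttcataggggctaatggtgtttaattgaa
SADHU3-1, chr3:15813937-15814056, minus strand: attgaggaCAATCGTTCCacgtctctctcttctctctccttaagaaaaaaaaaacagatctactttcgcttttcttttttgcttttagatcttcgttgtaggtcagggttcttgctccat
SADHU3-2, chr3:14750175-14750294, minus strand: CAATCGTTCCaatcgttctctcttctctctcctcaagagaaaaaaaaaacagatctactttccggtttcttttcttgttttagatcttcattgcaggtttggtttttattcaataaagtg
SADHU4-1, chr5:10934611-10934730, minus strand: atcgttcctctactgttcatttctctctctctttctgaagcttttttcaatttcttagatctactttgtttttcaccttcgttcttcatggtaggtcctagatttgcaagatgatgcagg
The run began at base 41 of SADHU1-1, 23 of SADHU1-3, 1 of SADHU2-1, 9 of SADHU3-1 and 1 of SADHU3-2. No other of the 3138 features had it in its first 120 bases, which makes 0.159% of them, and none had it there on the opposite strand. In the same 5 copies a longer pyrimidine run, CTCTCTTCTCTCTC, followed it, again found in the first 120 bases of no other feature. In alignments of whole features, SADHU1-3, SADHU2-1, SADHU3-1 and SADHU3-2 were 61.1 to 63.8% identical to SADHU1-1 over 847 to 939 aligned bases. Of the 1704 bases of SADHU1-3, 875 were aligned. Identities are not given for copies that aligned over too little of their length, SADHU4-1 among them.

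Most pericentromeric features gave little or no RNA in either genotype. Of the 3138, 1851 (59%) had 0 reads in all 5 libraries, 1164 had 1 to 9 reads in all and 44 had at least 100. A feature was tested for a difference when at least 2 libraries had 5 reads or more, and 88 passed (2.8%), against 152 of the 765 features outside the windows (19.9%). The 88 held 92.7% and 94% of the reads of all pericentromeric features in hdl libraries, and 94.8, 96.7 and 96% in WT libraries. They comprised 12 features on chromosome 1, 29 on chromosome 2, 17 on chromosome 3, 10 on chromosome 4 and 20 on chromosome 5.

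The features with reads differed from the silent ones in sequence and position. The longest open reading frame, counted over the annotated span, had a median of 284 codons in the 88 tested features, 203 codons in the 1199 with reads that were not tested and 149 codons in the 1851 with no read. The median span was 2762 bases in the tested features, 2801 bases in those with reads that were not tested and 1533 bases in the silent ones, so only the silent features were shorter. Under 50% of the 50-base words were unique in the genome in 3.41% of the tested features, 4.75% of the others with reads and 22.2% of the silent ones, and reads from repeated copies may be lost or shared out at alignment. The tested features also lay closer to genes. The distance to the nearest gene of the gene table had a median of 1520 bases for tested features, 16485 bases for the others with reads and 24439 bases for the silent ones, and 43.2, 6.01 and 3.3% of these groups lay within 1000 bases of such a gene. Outside the windows 75% of the tested features lay that close.

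**Figure D1:**
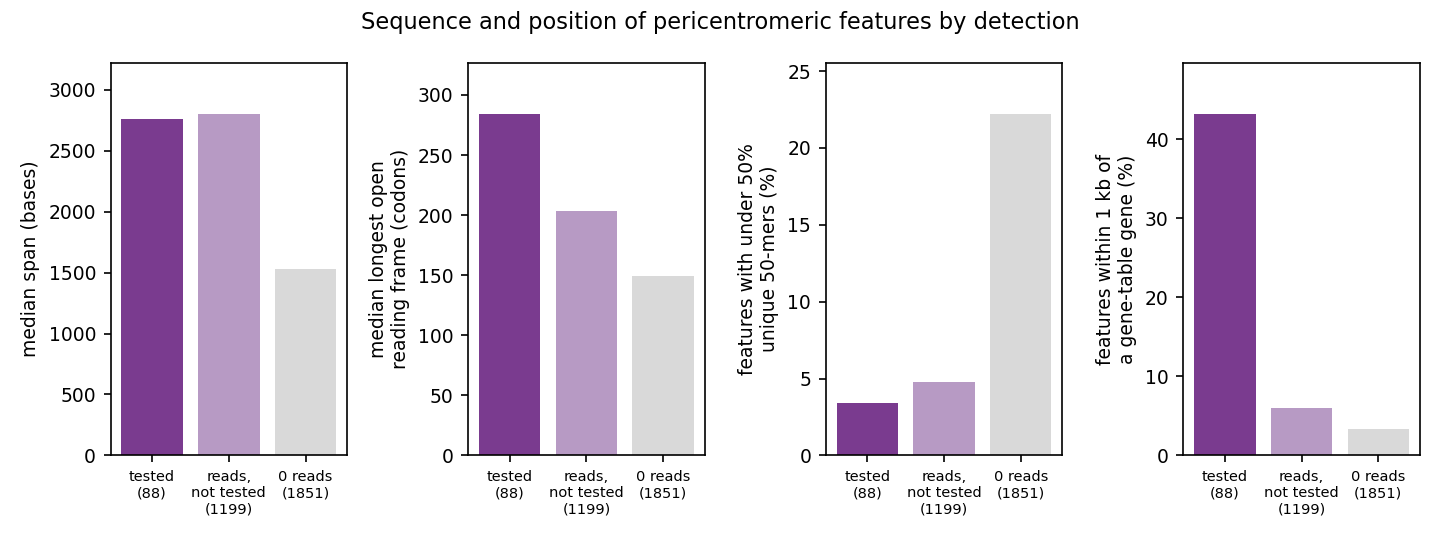
Median span, median longest open reading frame, percent of features with under 50% unique 50-base words and percent within 1000 bases of a gene of the gene table, for pericentromeric features grouped by detection. The 88 tested features, leftmost in each panel, had the longest reading frames (284 codons) and lay near a gene most often (43.2%), while the 1851 features with no read were the shortest (1533 bases) and the least unique.

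The libraries were of similar depth, with 18316092 and 19741801 gene reads in hdl and 15418154 to 22838239 in WT, recovered from the deposited normalized table. hdl replicate 1 stood apart in the raw count table. All of its counts were even, so they were taken as 2 per read and divided by 2. The unit of this library is uncertain. Its gene reads, as recovered, made up 45.6% of the undivided total of that table and 91.2% of the divided total. The shares were 47.1% in hdl replicate 2 and 45.1 to 46.2% in WT libraries. The recovery counts in steps of the smallest value of a library, so it would also remove a doubling of all its gene counts. In that case 45.6% would set unlike units against each other, and 91.2% would be the share. Whether it was counted with other settings is not given in the sources used here. Undivided counts are set below over these gene reads unchanged, which makes every level of this library 2 times as high by construction. If its gene counts were doubled too, the levels of the divided counts would hold. Undivided counts marked ambiguous numbered 6 in hdl replicate 1 and 139 in hdl replicate 2, against 168 to 363 in WT libraries. Of the 46 pericentromeric features with at least 10 reads in every other library, 8 lay below 5% of the lowest other library in hdl replicate 1. hdl replicate 2 had 1 such feature of 38 and the WT libraries had 0. Of the 8 features, 3 overlap an annotated gene on the opposite strand, as do 6 of the other 80 tested features. The main results are therefore also given without hdl replicate 1 or with its undivided counts.

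The labelled cell type was checked on marker genes, none of which was at 0 in any library. The 5 epidermal markers summed to 56664 and 51001 normalized counts in hdl and 17389 to 19292 in WT. The lipid transfer protein gene LTP1 and the wax synthesis gene CER6 made up most of that gap, with 30942 and 27422 and with 15706 and 14730 in hdl, against 4140 to 7522 and 3700 to 5593 in WT. ATML1, whose promoter drives the reporter, did not pass the test (log2 change 0.23, limma adjusted p = 0.54), nor did PDF1 (-0.21, adjusted p = 0.431), whereas PDF2 was higher in hdl (0.87, adjusted p = 0.0202). The 5 mesophyll markers summed to 740411 and 708296 in hdl and 377715 to 511639 in WT, so photosynthetic transcripts were abundant in both. The 3 phloem markers summed to 13105 and 11262 in hdl and 25832 to 36819 in WT, the 2 xylem markers to 9024 and 8926 in hdl and 16114 to 33607 in WT, and the 3 guard cell lineage markers to 205 and 269 in hdl and 511 to 699 in WT. Single markers did not all follow their sums. The phloem marker SUC2 had 2040 and 1844 in hdl and 983 to 1927 in WT. The xylem marker XCP1 had 1411 and 1255 in hdl and 5100, 1134 and 4838 in WT. The marker sums moved with the genotype alongside every result below, and their part in those results was not tested.

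Whether pericentromeric RNA was lower in sum in hdl libraries depends on the units of the feature and gene counts of hdl replicate 1. The features outside the windows gave like values. Levels are given in RPM, the reads per 1000000 scaled gene reads, where the gene-table reads of a library were multiplied by its TMM factor. All 3138 features together had 396 and 541 RPM in hdl replicates 1 and 2, against 637, 827 and 711 in WT replicates 1, 2 and 3. Both hdl libraries lay below every WT library. The means were 468 ± 102 in the 2 hdl libraries and 725 ± 95.6 in the 3 WT libraries (mean ± SD), a log2 ratio of -0.63. The exact two-sided permutation p was 0.1, the smallest that the 10 splits of 2 against 3 libraries allow. The 765 features outside the windows had 767 and 875 RPM in hdl and 1167, 1188 and 1231 in WT, a log2 ratio of -0.54 with the same exact permutation p of 0.1. With undivided counts over unchanged gene reads, hdl replicate 1 had 792 RPM, above WT replicates 1 and 3, a rise built into that setting. The log2 ratio was then -0.12 for the pericentromeric features (exact permutation p = 0.6) and 0.01 for those outside the windows (exact permutation p = 0.8). Scaled to all reads of the raw count table, which makes the ratio independent of the division, the levels were 317 and 223 per 1000000 reads in hdl and 312, 404 and 368 in WT, and the groups overlapped (log2 ratio -0.42, exact permutation p = 0.3).

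A single feature carried much of the summed difference. AT2G11240 supplied 0.0157% of all pericentromeric reads in hdl replicate 1 and 16.8% in hdl replicate 2, against 24.7, 31.6 and 25.9% in WT libraries. Without it the summed level was 423 ± 37.9 in hdl and 524 ± 43.2 in WT, a log2 ratio of -0.31 (exact permutation p = 0.2), or 0.24 with undivided counts of hdl replicate 1 (exact permutation p = 0.8). Without the 8 features that hdl replicate 1 alone lacked, it was 398 ± 3.05 in hdl and 466 ± 35.9 in WT, a log2 ratio of -0.23. Those 8 were picked for low values in hdl replicate 1, so leaving them out, here and below, is bound to raise that library relative to the others. Without hdl replicate 1, the sum was 541 in hdl and 725 ± 95.6 in WT, a log2 ratio of -0.42, at an exact permutation p of 0.25 that is the smallest of 4 splits.

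With the division, the sum was lower in hdl libraries in each of the 5 windows, by different amounts. On chromosome 2, where AT2G11240 lies, the summed level was 152 and 290 RPM in hdl and 330, 455 and 379 in WT, a log2 ratio of -0.81. Leaving out the 5 features of this window that hdl replicate 1 alone lacked gave 152 and 154 in hdl and 135, 150 and 143 in WT, a log2 ratio of 0.10. Those features were picked for low values in hdl replicate 1. Their removal is bound to raise that library, so the turn is no separate result. The chromosome 1 window had 51.1 and 55.4 RPM in hdl and 73, 92.3 and 84.5 in WT, a log2 ratio of -0.65, or -0.62 without the feature that hdl replicate 1 alone lacked. On chromosome 3 the levels were 60.4 and 57.8 in hdl and 72.2, 81.4 and 85.6 in WT, a log2 ratio of -0.43, with no such feature. The log2 ratio was -0.34 on chromosome 4 and -0.37 on chromosome 5, and -0.27 and -0.29 without such features. In all 5 windows the 2 hdl libraries lay below the 3 WT libraries when every feature was counted. Without hdl replicate 1 the log2 ratios of chromosomes 1 to 5 were -0.59, -0.42, -0.46, -0.28 and -0.36. With its undivided counts over unchanged gene reads they were -0.08, -0.39, 0.16, 0.22 and 0.21. That setting is bound to raise each ratio, and with it the direction on chromosomes 3, 4 and 5 turned. No test was made per window.

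**Figure D2:**
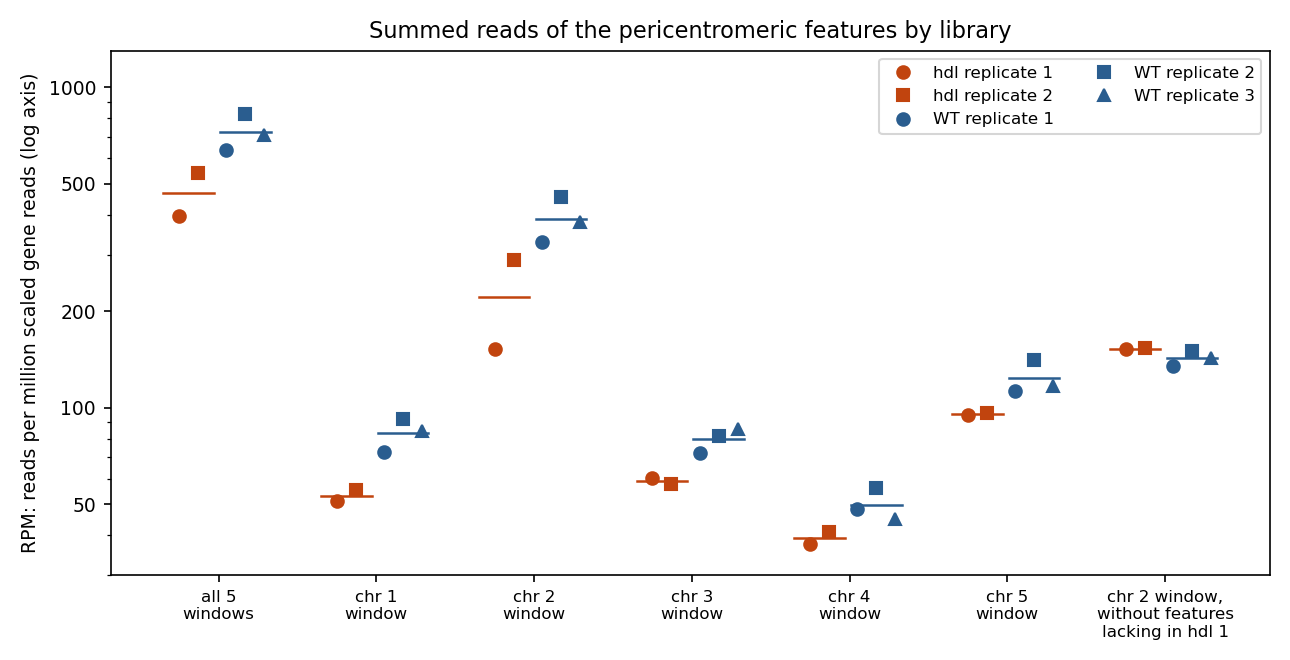
Summed RPM of all pericentromeric features and of each chromosome window, on a log axis, with 1 point per library, a line at the mean of each genotype and the counts of hdl replicate 1 divided by 2. The hdl points lie below the WT points in all 5 windows, and in the chromosome 2 window they lie above them, at 152 and 154 against 135 to 150, once 5 features that hdl replicate 1 lacked are left out. Those 5 were picked for low values in that library, so leaving them out is bound to raise it.

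Relative to the other features of the same table, the pericentromeric share hardly differed. Their reads made up 34.1 and 38.2% of all feature reads in hdl and 35.3, 41 and 36.6% in WT, and the groups overlapped. The means were 36.1 ± 2.91% in hdl and 37.6 ± 3% in WT, a difference of -1.51 percentage points (exact permutation p = 0.7). The sign of this difference turned without hdl replicate 1 (0.546 points), without WT replicate 2 (0.173 points) and without AT2G11240 (3.56 points). It also turned without the 8 features lacking in hdl replicate 1 (4.69 points). Those 8 were picked for low values in that library, so leaving them out is bound to raise it relative to the others. The pericentromeric share depends neither on how the libraries were scaled to genes nor on the division of hdl replicate 1.

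The number of pericentromeric features with any read was also compared at equal depth. Thinned in expectation to 15418154 gene reads, hdl libraries showed 313 and 376 such features and WT libraries 457, 379 and 412. The means were 344 ± 45.2 in hdl and 416 ± 39.1 in WT, a difference of -71.7 features (exact permutation p = 0.2), or -39.7 without hdl replicate 1. Both hdl libraries lay below every WT library when 1 read was enough, by 3 features at the closest, and the groups overlapped when 2 reads were required, after the division of hdl replicate 1. Features with at least 2 reads numbered 113 and 138 in hdl and 164, 119 and 150 in WT, a difference of -18.8 (exact permutation p = 0.4). After the division, the number of pericentromeric features with any read was thus not higher in hdl at this depth. Features that lack WT reads were not counted apart here.

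Among the 88 tested features, none was called different between hdl and WT at an adjusted p under 0.05 in edgeR's quasi-likelihood test, with Benjamini-Hochberg adjustment over the 240 features tested. The share called over all 240 features was 0% higher and 0% lower, and the smallest adjusted p of a pericentromeric feature was 0.178. At an unadjusted p under 0.05, 2 were higher and 9 lower in hdl, against 1.67% higher and 11.2% lower over all features. DESeq2 on the same reads called 1 higher (AT5G35777) and 2 lower (AT5G28145 and AT3G43690), against 0.417% higher and 2.5% lower over all features. With no filter beyond 1 read, edgeR called 1 higher and 6 lower of 1287, against 0.058% and 0.812% of 1724 features. Without hdl replicate 1, with the lone hdl library assumed to vary like the WT libraries, edgeR called 2 higher and 5 lower of 84, against 0.866% and 4.76% of all 231 features tested then. Without hdl replicate 2 it called 1 higher and 13 lower of 84, against 1.31% and 15.3% of 229 features. With undivided counts of hdl replicate 1, edgeR called 0 higher and 0 lower of the 88. The counts of calls thus depend on which hdl library is used. Without hdl replicate 1 and without hdl replicate 2, the log2 change was 2.30 and 2.33 for AT5G35777 and -2.51 and -2.23 for AT5G28145. In the same order it was -1.72 and -1.43 for AT3G43690, -1.14 and -11.52 for AT2G11240 and -2.20 and -10.20 for AT5G27845.

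As a group, the tested pericentromeric features had values much like those of the others. Their median log2 change was -0.58, against -0.71 over all 240 tested features and -0.73 over those outside the windows. Placing features with no hdl read at the bound that 3 reads per library allow gave medians of -0.48 for the pericentromeric features and -0.66 for all. Every hdl library lay below every WT library for 30 of the 88 (34.1%), against 35.4% of all tested features, and above for 5 (5.68%), against 5.42%. Both shares were near the background. The filter could pass a feature through WT reads alone, from any 2 of the 3 WT libraries. This favours lower values in hdl in the medians, in the split of 30 and 5 and in the unadjusted counts above. Without hdl replicate 1, hdl lay below for 34 (38.6%), against 40.8% of all tested features, and above for 11 (12.5%), against 13.8%, and with its undivided counts below for 19 (21.6%), against 19.6%, and above for 7 (7.95%), against 9.17%. Of the 30 lower ones, 3 lay in the chromosome 1 window, 7 on chromosome 2, 5 on chromosome 3, 6 on chromosome 4 and 9 on chromosome 5, and of the 5 higher ones 3 lay on chromosome 2 and 1 each on chromosomes 3 and 5. The 38 features within 1000 bases of a gene had a median of -0.55, and the 50 farther away one of -0.62. Another scaling moved these medians: against all reads of the raw count table the median over all features was -0.46 and that of the pericentromeric features -0.31, and with equal gene-read totals they were -1.02 and -0.90. Without hdl replicate 1 they were -0.65 and -0.55, and with its undivided counts -0.20 and -0.08.

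**Figure D3:**
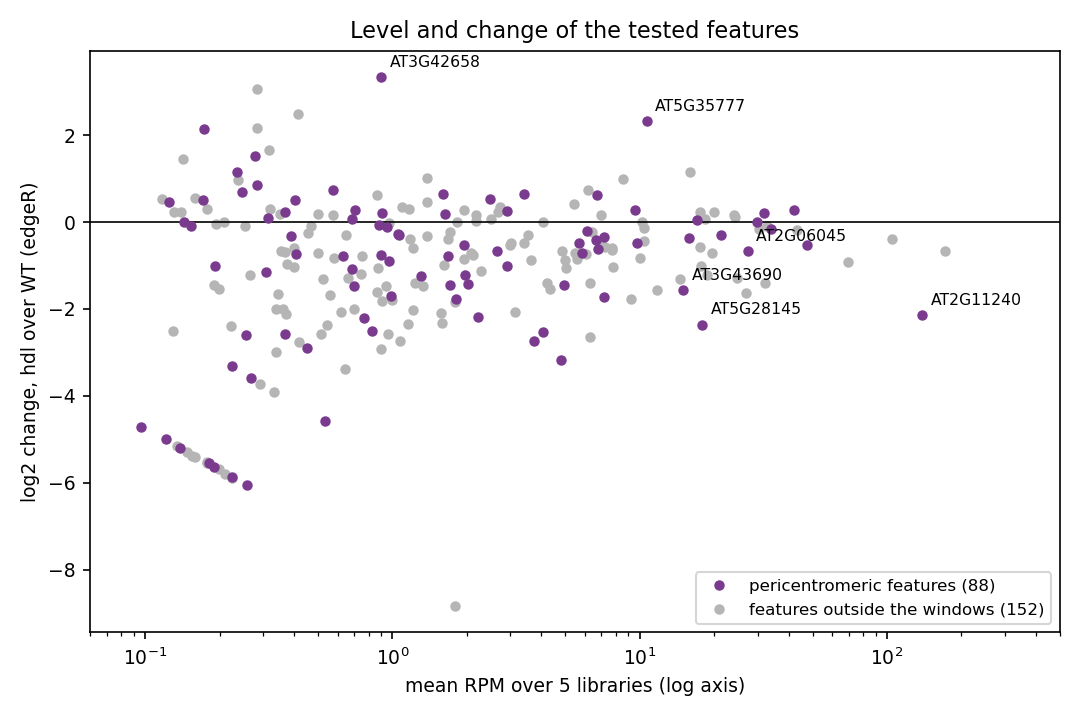
Log2 change in hdl over WT against the mean level on a log axis, for the 88 tested pericentromeric features (purple) and the 152 tested features outside the windows (grey). The 2 groups overlap over most of the range, and 6 features described in the text are labelled. The slanted row at the lower left holds features with 0 reads in both hdl libraries, whose fitted change depends on the prior count and is no estimate of size.

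AT5G35777 was the clearest feature with more RNA in hdl. It had 334 and 352 reads in hdl replicates 1 and 2, against 82, 35 and 159 in WT replicates 1, 2 and 3. Both hdl libraries were more than 2 times the highest WT library in reads. Its level was 20.6 ± 0.295 RPM in hdl and 4.12 ± 2.06 in WT, a log2 change of 2.32 ± 0.47 (SE). In edgeR the adjusted p was 0.178 with all libraries, 0.000471 without hdl replicate 1 and 9.96e-05 without hdl replicate 2, and DESeq2 gave 0.0126. With undivided counts of hdl replicate 1 the log2 change was 2.91 (edgeR adjusted p = 0.0646). It lies at chr5:13949228-13953802 on the plus strand, holds an open reading frame of 370 codons, is 99.4% unique in 50-base words and overlaps no annotated gene. The nearest gene of the gene table, G6PD1, which encodes a glucose-6-phosphate dehydrogenase, lies 2870 bases away on the opposite strand and had a log2 change of 0.42 (limma adjusted p = 0.187).

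AT5G28145, whose start region resembles that of AT5G35777, differed in the opposite direction. It had 90 and 80 reads in hdl and 440, 721 and 364 in WT, so all WT libraries exceeded both hdl libraries. The level was 5.11 ± 0.687 RPM in hdl and 26.4 ± 15 in WT, a log2 change of -2.36 ± 0.53 (SE). The edgeR adjusted p was 0.178 with all libraries, 0.000471 without hdl replicate 1 and 0.000355 without hdl replicate 2, and that of DESeq2 was 0.0173. With undivided counts of hdl replicate 1 the log2 change was -1.73 (edgeR adjusted p = 0.587). It lies at chr5:10129022-10133676 on the plus strand, with all of its 50-base words unique and an open reading frame of 586 codons. Its nearest gene, AT5G28150, starts 1733 bases downstream on the same strand and had 183 and 200 normalized counts in hdl, and a mean of 89.3 ± 51.2 in WT, a log2 change of 1.29 (limma adjusted p = 0.179), the opposite sign.

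AT3G43690, named after its values were seen because DESeq2 called it, was lower in hdl in all comparisons of single libraries. It had 121 and 107 reads in hdl and 397, 410 and 434 in WT, and the groups did not overlap. The log2 change was -1.57 ± 0.29 (SE), with an edgeR adjusted p of 0.178, against 0.00659 without hdl replicate 1, 0.00949 without hdl replicate 2 and 0.00508 by DESeq2, and a log2 change of -0.94 with undivided counts of hdl replicate 1 (edgeR adjusted p = 0.587). The feature lies at chr3:15598179-15600798 on the plus strand.

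AT2G11240 was the most abundant pericentromeric feature in WT and nearly absent from 1 hdl library. It had 1 read in hdl replicate 1 and 1571 in hdl replicate 2, against 3193, 4360 and 4713 in WT. In RPM these are 0.0622 and 90.9 in hdl, against 157, 261 and 184 in WT, so the 2 hdl libraries differed from each other far more than hdl replicate 2 differed from WT. The log2 change was -2.14 ± 1.86 (SE) with all libraries (edgeR adjusted p = 0.564), -1.14 without hdl replicate 1 (adjusted p = 0.00461) and -11.52 when hdl replicate 2 was left out. The feature spans chr2:4477686-4483748 on the minus strand, with an open reading frame of 579 codons, and overlaps the short annotated genes AT2G11215 and AT2G11225 on the opposite strand. Whether the counting used strand is not given in the sources used here, so reads of overlapping genes cannot be told apart.

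AT2G06045 showed the same split between the hdl libraries without a difference in the other library. It had 1 read in hdl replicate 1 and 695 in hdl replicate 2, against 681, 395 and 995 in WT, and the log2 change was -0.67 ± 1.61 (SE) with all libraries (edgeR adjusted p = 0.867) and 0.33 without hdl replicate 1. This feature of 387 bases abuts OPR3, which encodes a reductase of jasmonic acid synthesis, on the opposite strand. OPR3 itself had 17484 and 17290 normalized counts in hdl and 11364, 4751 and 10636 in WT, with no such gap between the hdl libraries. Per length, AT2G06045 ranked first of the 88 at 70.5 RPM per kilobase over the 5 libraries, ahead of SADHU1-1 at 40.2 and AT2G11240 at 22.9, while the median of the 88 was 0.559.

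Other features that hdl replicate 1 lacked, named after their values were seen, included a neighbouring pair on chromosome 2. AT2G15800 had 0 and 29 reads in hdl and 41, 159 and 138 in WT, and AT2G15810 next to it on the same strand had 0 and 36 in hdl and 28, 171 and 172 in WT. The first overlaps AT2G15790 on the opposite strand and the second overlaps no gene there. AT5G27845 had 0 and 28 reads in hdl and 139, 181 and 121 in WT, a log2 change of -3.18 ± 1.37 (SE) with all libraries (edgeR adjusted p = 0.352); leaving out hdl replicate 1 gave -2.20 (adjusted p = 0.0179). AT4G08100 had 0 and 24 reads in hdl and 53, 58 and 91 in WT. In the other direction, AT1G43675 had 23 and 0 reads in hdl and 19, 51 and 28 in WT, so it was missing from hdl replicate 2 alone.

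The remaining abundant features differed little between genotypes, and none passed the test. AT1G35115 had 587 and 667 reads in hdl and 1039, 858 and 1557 in WT, and 36.5 and 38.6 RPM in hdl against 51.2, 51.3 and 60.9 in WT. The groups did not overlap, and the log2 change was -0.54 ± 0.19 (SE, edgeR adjusted p = 0.337). Only 75.1% of its 50-base words are unique, so part of its reads may belong to related copies. MUG8 had 484 and 580 reads in hdl and 683, 567 and 1008 in WT, with a log2 change of -0.16 ± 0.20 (SE, edgeR adjusted p = 0.717). This sign turned under 2 scalings. It lies 536 bases from PAP26, a purple acid phosphatase gene, which was higher in hdl with a log2 change of 0.71 (limma adjusted p = 0.0444, or 0.253 without hdl replicate 1).

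AT2G06950, with the longest reading frame of those described here after AT3G43955, at 1402 codons, had 639 and 507 reads in hdl and 698, 355 and 887 in WT. Its log2 change was 0.20 ± 0.30 (SE, edgeR adjusted p = 0.782), and -0.04 without hdl replicate 1. AT2G13970 had 463 and 524 reads in hdl and 473, 605 and 766 in WT, a log2 change of -0.01 ± 0.25 (SE). Both features overlapped between the genotypes. AT5G35935 had 331 and 288 reads in hdl and 449, 374 and 639 in WT, a log2 change of -0.31 ± 0.22 (SE, edgeR adjusted p = 0.518), with hdl below WT in RPM in every pair of libraries. AT3G43955, the most abundant feature of the chromosome 3 window, had 208 and 244 reads in hdl and 282, 285 and 539 in WT, a log2 change of -0.36 ± 0.27 (SE, edgeR adjusted p = 0.544). The gene 424 bases away from it, AT3G43960, was higher in hdl with a log2 change of 1.49 (limma adjusted p = 0.0352, or 0.2 without hdl replicate 1). With undivided counts of hdl replicate 1 the log2 changes of AT1G35115, MUG8, AT2G13970, AT5G35935 and AT3G43955 were 0.04, 0.39, 0.56, 0.32 and 0.21, the opposite sign in each. Over unchanged gene reads, that setting is bound to raise them.

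**Figure D4:**
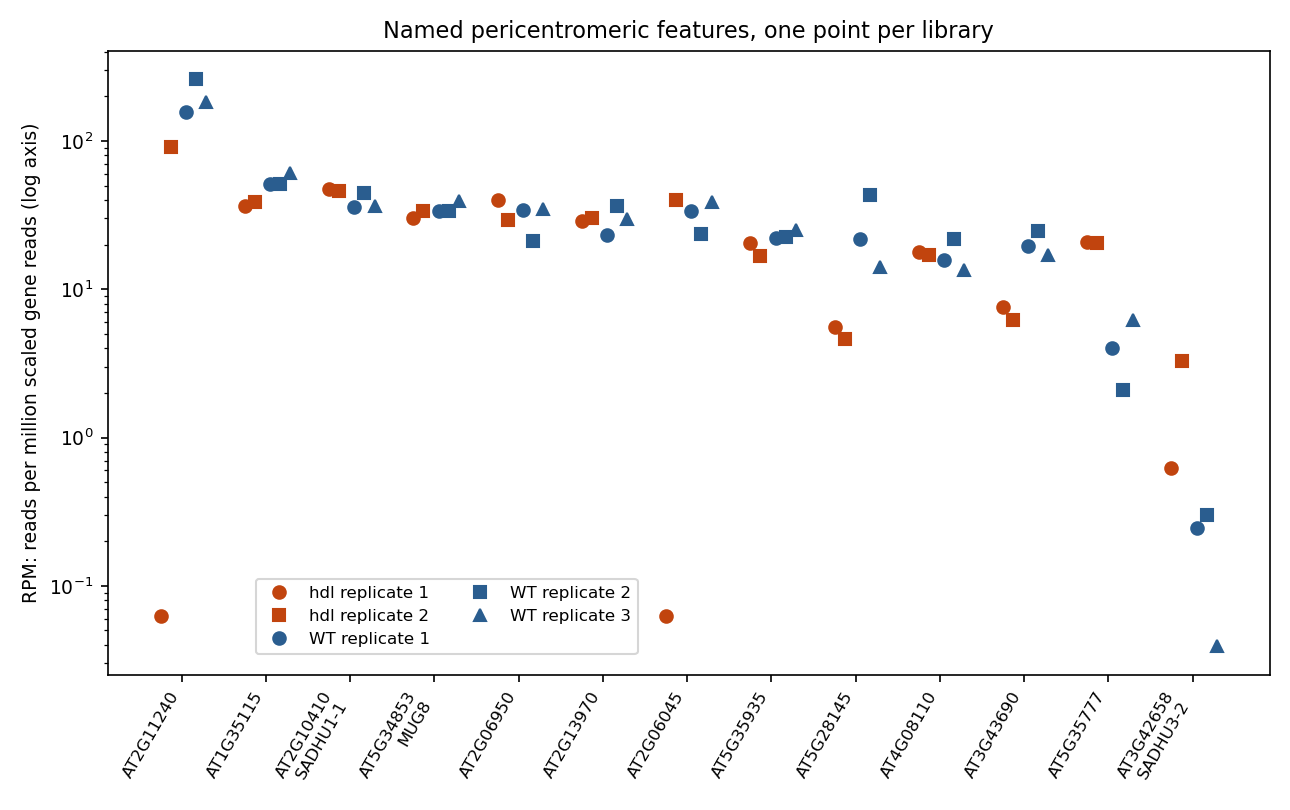
Level in each library, in RPM on a log axis, for the 10 most abundant pericentromeric features, AT3G43690, AT5G35777 and SADHU3-2. Most features lie within a narrow range over the 5 libraries, AT2G11240 and AT2G06045 drop to 0.0622 in hdl replicate 1, AT5G28145 and AT3G43690 lie lower in both hdl libraries, and AT5G35777 and SADHU3-2 lie higher in both.

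The 8 Sadhu copies, of which 6 are printed above, ranged from the third most abundant pericentromeric feature to no read at all. SADHU1-1 had 767 and 800 reads in hdl and 727, 747 and 930 in WT, which is 47.7 and 46.3 RPM in hdl and 35.8, 44.7 and 36.4 in WT. Its groups did not overlap, but the log2 change was 0.27 ± 0.19 (SE, edgeR adjusted p = 0.518) and was -0.05 with equal gene-read totals. SADHU3-2 had 10 and 57 reads in hdl and 5, 5 and 1 in WT, a log2 change of 3.33 ± 1.13 (SE, edgeR adjusted p = 0.335). Its adjusted p was 0.0179 without hdl replicate 1 and 0.639 without hdl replicate 2, so the value rests on the 57 reads of hdl replicate 2.

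SADHU4-1 pointed the other way, with 21 and 61 reads in hdl and 127, 83 and 218 in WT, a log2 change of -1.44 ± 0.56 (SE, edgeR adjusted p = 0.352), or -0.90 without hdl replicate 1 (adjusted p = 0.551). SADHU1-3 had 34 and 24 reads in hdl and 23, 33 and 39 in WT, and SADHU2-1 had 0 and 22 in hdl and 26, 6 and 49 in WT, with overlapping groups in both. SADHU3-1 had 1 read in all, in hdl replicate 1, SADHU5-2 had 1 read in all, in WT replicate 2, and SADHU7-2 had none. The values of the family had no common direction, and among the copies that share CAATCGTTCC were both SADHU1-1, the most abundant, and SADHU3-1, with 1 read.

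The largest remaining differences by the naming rule were in features with few reads. AT2G11880 had 71 and 74 reads in hdl and 55, 49 and 69 in WT, a log2 change of 0.64 ± 0.38 (SE, edgeR adjusted p = 0.429). AT2G14220 had 106 and 180 reads in hdl and 124, 90 and 133 in WT, a log2 change of 0.61 ± 0.34 (SE, edgeR adjusted p = 0.409), and lies 197 bases from AGL44, a MADS-box gene listed at 0 and 1.24 normalized counts in hdl and at a mean of 1.19 in WT. Among features with lower values, 7 of the 88 had 0 reads in both hdl libraries, against 17 of all 240 tested features. The reverse, 0 reads in all WT libraries, was seen in 0 of the 88. The filter of 5 reads in at least 2 libraries favours this contrast. Any 2 of the 3 WT libraries could pass a feature alone, whereas a feature without WT reads needed both hdl libraries. The 5 named among the 7 features with 0 hdl reads had few reads in WT as well. AT2G15720 had 6, 16 and 1 reads in WT and AT2G07070 had 10, 6 and 7. AT5G28067 had 8, 4 and 8 reads in WT, AT2G12500 had 1, 11 and 5, and AT3G42820 had 1, 6 and 5. Their WT means were 1.12 to 2.39 times a floor of 3 reads per hdl library, or 0.18 RPM, which covers counting error only. Single WT libraries also lay below that floor, such as AT2G15720 at 0.0391 RPM in WT replicate 3 and AT2G12500 at 0.0493 in WT replicate 1. All 5 passed the filter through WT reads alone, so no size of difference is given for them. Their edgeR adjusted p-values were 0.347 to 0.409.

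Neighbouring features did not always have like values. On chromosome 4, AT4G08110 had 285 and 296 reads in hdl and 318, 364 and 342 in WT, a log2 change of 0.04 ± 0.29 (SE). In the same stretch, AT4G08115 had 29 and 31 reads in hdl and 59, 66 and 104 in WT, a log2 change of -1.01 ± 0.44 (SE), and AT4G08112 had 2 and 6 reads in hdl and 36, 14 and 19 in WT. AT4G08110 overlapped between genotypes and the other two did not. On chromosome 5, the neighbours AT5G28415, AT5G28430 and AT5G28440, chosen after their values were seen, all had hdl below WT. AT5G28415 had 10 and 24 reads in hdl and 44, 56 and 66 in WT. AT5G28430 had 12 and 16 in hdl and 50, 41 and 50 in WT, and AT5G28440 had 8 and 3 in hdl and 11, 16 and 34 in WT. Their log2 changes of -1.42, -1.45 and -1.48 had edgeR adjusted p-values of 0.352, 0.352 and 0.45.

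Genes of DNA methylation and transposon silencing were then read in the authors' normalized gene table. They include 3 demethylase genes, so the list and its sum do not hold only factors that keep elements silent. All 50 genes of a list of DNA methylation and silencing genes were tested with limma on log2(value + 1), with adjustment over 20391 genes. In hdl 0 were higher and 3 lower, against 8.21% higher and 4.5% lower among all genes. The median change of the list was -0.31 and that of all genes -0.05, and the normalized counts of the 50 genes summed to 20123 and 19769 in hdl and 25329, 25401 and 25640 in WT. CLSY1, a chromatin remodeller that recruits the RNA polymerase of RNA-directed DNA methylation, had 119 and 117 normalized counts in hdl and 284, 322 and 300 in WT, with a log2 change of -1.35 ± 0.21 (SE) and a limma adjusted p of 0.0148, or 0.103 without hdl replicate 1. VIM1, a cofactor of maintenance methylation, had 668 and 657 in hdl and 994, 995 and 987 in WT, with a log2 change of -0.58 ± 0.13 (SE) and a limma adjusted p of 0.0404. The linker histone gene H1.1 had 695 and 586 in hdl and 1040, 1102 and 971 in WT, with a log2 change of -0.70 ± 0.15 (SE) and a limma adjusted p of 0.0371, and overlaps genes on the opposite strand. Both hdl libraries lay below all WT libraries for each of the 3 genes.

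The most abundant genes of the list did not pass. DME, a DNA demethylase gene, had 1657 and 1652 normalized counts in hdl and 2381, 2114 and 2316 in WT, a log2 change of -0.45 ± 0.13 (SE, limma adjusted p = 0.0674). MET1, the maintenance methyltransferase gene, had 1245 and 1309 in hdl and 1902, 1203 and 2076 in WT, and H1.2 had 1244 and 1039 in hdl and 1501, 2734 and 1379 in WT, with limma adjusted p-values of 0.315 and 0.206. DDM1 had a log2 change of -0.21 (adjusted p = 0.639). No group of the list had a called rise, and the calls were in the maintenance cofactors and remodellers (2 of 8) and the linker and variant histones (1 of 5). The count of calls was 0 without hdl replicate 1, without WT replicate 1 and without WT replicate 3, 1 without hdl replicate 2 and 13 (1 higher, 12 lower) without WT replicate 2. DESeq2 on recovered reads gave 1 higher and 10 lower, and equal totals gave 0 higher and 16 lower. Shares over all genes under these settings are not given here, so the counts cannot be set against a background. CLSY1 lies in the chromosome 3 window, 5503 bases from SADHU3-2 on the other side of AT3G42660.

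**Figure D5:**
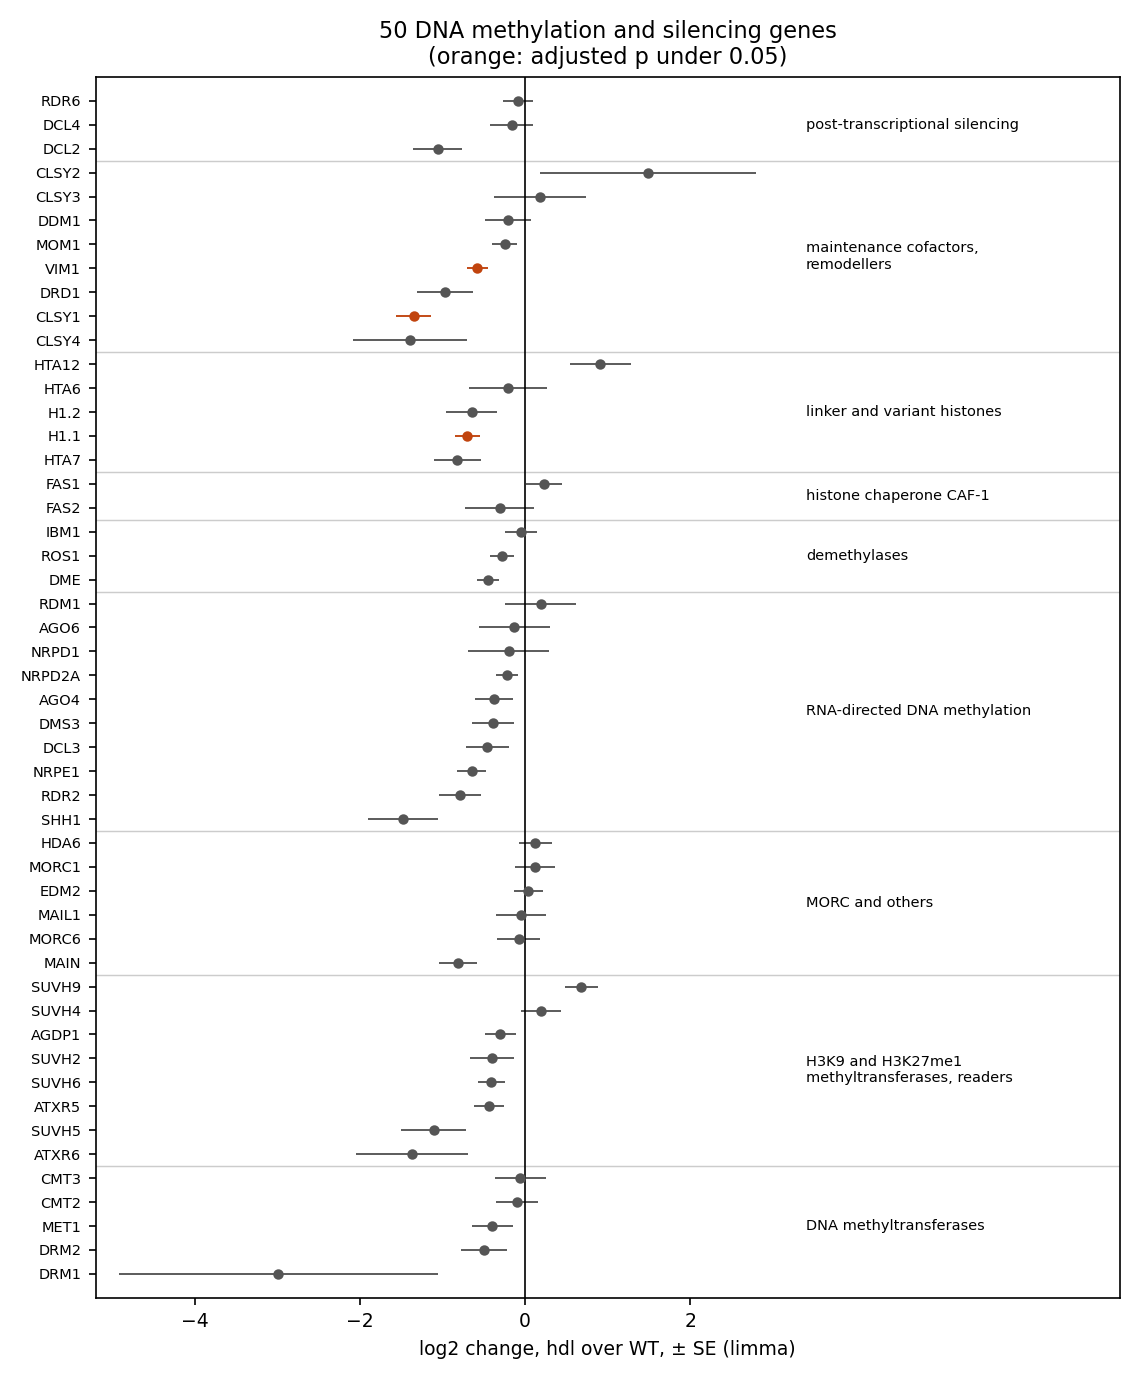
Log2 change in hdl over WT with its standard error from limma for the 50 DNA methylation and silencing genes, grouped by role, with the 3 genes at an adjusted p under 0.05 in orange. Most points lie left of 0 (median -0.31), and DRM1, the lowest point, was listed at 0 in both hdl libraries.

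Ordinary genes in the same identifier windows were not lower in hdl as a group. Of 1642 such genes in the gene table, 1236 were tested, 110 were higher (8.9%) and 38 lower (3.07%) in hdl, against 8.21% and 4.5% of all genes, with a median change of 0.07. The largest rise was in AT2G15555, at 250 and 355 normalized counts in hdl and listed at 0 in all WT libraries. XTH31, a gene of cell wall xyloglucan modification, had 1247 and 968 in hdl and 53, 51.2 and 120 in WT. AT2G15020 had 1298 and 1156 in hdl and 74.3, 102 and 98.4 in WT. The metal transporter gene ZIP7 had 74.2 and 85.2 in hdl and 5.3, 10.2 and 4.17 in WT. For these 4 genes both hdl libraries lay far above every WT library, with limma adjusted p-values of 0.0054, 0.00628, 0.00305 and 0.0248. The largest falls were in AT1G33930, ACBP5, AGD13 and AT3G47110, with log2 changes of -2.77, -2.50, -2.36 and -1.98 and limma adjusted p-values of 0.0386, 0.0176, 0.027 and 0.0344. These counts were 0 without hdl replicate 1, 38 higher and 48 lower without hdl replicate 2, 56 and 8 without WT replicate 1, 249 and 109 without WT replicate 2, and 27 and 3 without WT replicate 3. With equal totals 72 were higher and 106 lower, so the split by direction depends on the scaling and on hdl replicate 2. For these alternatives too, shares over all genes are not given here.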

How the data were processed

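The build was TAIR10, and Bowtie2 2.5.0, DESeq2, Trimmomatic 0.33 and SAMtools 1.16.1 were among the programs, per the submitters' processing notes. How reads were counted and whether strand was used is not given in the sources used here. For 3903 features the authors deposited raw counts, with 5 summary rows that stayed out of all tests; the row for reads outside any feature held 91.7 to 94.7% of each library's counts. The authors also deposited a gene table of 24200 genes, a signal that the file names as DESeq2-normalized counts. Its values were whole multiples of 1 step per library within 0.01 (100% of values). That step was the smallest value above 0, so whole reads were recovered up to a factor shared by all genes of a library.

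Counts of hdl replicate 1, all even, were divided by 2; undivided counts were an alternative chosen after seeing the data. Raw counts were tested with edgeR 4.0.16 in R 4.3.3 (quasi-likelihood, all 5 libraries, no covariate, at least 5 reads in at least 2 libraries, adjusted over all 240 features). Library sizes were the gene reads times the TMM factors of the gene table. Gene-table values were tested with limma 3.58.1 on log2(value + 1) with an intensity trend, keeping genes that reached 10 normalized counts in 2 or more libraries; fold changes of low genes are understated on that scale. DESeq2 1.42.0, other scalings, filters, pseudocounts, left-out libraries and a replicate block were alternatives. Single values per library were compared with exact two-sided permutation tests in SciPy 1.17.1. Coordinates, neighbours, unique 50-base words, open reading frames and sequences come from RefSeq TAIR10.1, in which all 3903 features were found, and identities from global alignments in Biopython 1.88. The fits were tried on simulated counts with the same dispersion for every feature and no library that stands apart. That trial therefore does not cover a library such as hdl replicate 1.

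The features named are any called, up to 10, the 10 most abundant, the 5 highest and 5 lowest changes among those whose groups do not overlap, and the most abundant of each window. Named silencing genes are the called ones and the 3 most abundant others, and named window genes the 4 largest called rises and falls with at least 50 normalized counts. Features, lists and rules were chosen with earlier results of these data known. The level of HDL itself is not reported here.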

Additional observations from a re-analysis of the deposited data

How the results depend on the processing

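Of the 324 alternative values of the 20 named features, 287 kept their direction and their side of the threshold, 15 passed it in the same direction and 22 reversed. With undivided counts of hdl replicate 1 over its unchanged gene reads, an alternative chosen after seeing the data, the log2 change was 0.04 for AT1G35115, 0.39 for MUG8, 0.56 for AT2G13970, 0.32 for AT5G35935 and 0.21 for AT3G43955, the summed level was -0.12, and 0 features were called. With equal gene-read totals the log2 change was -0.05 for SADHU1-1 (AT2G10410), -0.12 for AT2G06950 and -0.27 for AT4G08110. With all reads of the raw count data as library sizes it was 0.09 for MUG8 (AT5G34853), 0.26 for AT2G13970 and 0.01 for AT5G35935, and with TMM factors computed within those data it was 0.17, 0.34 and 0.02. When 1 library was left out it ranged from -0.04 to 0.40 for AT2G06950 (negative without hdl replicate 1), from -0.16 to 0.15 for AT2G13970 (positive without hdl replicate 1 at 0.02 and WT replicate 2 at 0.15), from -8.87 to 0.33 for AT2G06045 (positive without hdl replicate 1) and from -0.10 to 0.26 for AT4G08110 (-0.01 and -0.10 without WT replicates 1 and 3). The main values of these features were not past the threshold, and the cause was not tested. The calls among pericentromeric features, 0 higher and 0 lower in the main edgeR test, were 1 and 2 with either DESeq2 scaling and 1 and 6 of 1287 with no filter; they were 0 to 2 and 0 to 13 when 1 library was left out. The share of feature reads, -1.51 points, became 3.56 without AT2G11240, 1.58 without the 10 most abundant features, 4.69 without the 8 features lacking in hdl replicate 1 (an alternative chosen after seeing the data), and ranged from -3.57 to 0.546 when 1 library was left out. The summed level, a log2 ratio of -0.63, was -0.95 with equal gene-read totals and -0.42 against all reads of the raw count data. Silencing genes called, 3 in limma, were 11 by DESeq2, 16 with equal totals and 0 to 13 when 1 library was left out. Window genes called, 148 in limma, were 278 by DESeq2 (188 higher, 90 lower) and 0 to 358 when 1 library was left out.

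Libraries with the same replicate number did not deviate together (r = 0.00477 and -0.0123 over genes, 0.0637 and 0.0577 over features), so they share only a number. With the replicate number as a block, 0 pericentromeric features were called higher and 0 lower, and 0 silencing genes and 0 window genes were called; the log2 change was 0.02 for AT2G13970 and -0.08 for AT4G08110.

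The 2 hdl libraries, 1 of which stands apart, limit every comparison. Shares over all genes are not given for the alternative counts of silencing and window genes, so those counts have no background beside them. The 1164 features with 1 to 9 reads were too shallow for the test. Undivided counts with the library size doubled likewise are bound to give almost the same values as the divided ones and show nothing about the unit.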
